A study of Mus musculus with 18 samples.

Results

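The genes described here are 10 core genes of myostatin, activin and TGF-beta signalling, read by symbol from the raw count table of 18 RNA sequencing libraries of C2C12, an established line of mouse myoblasts whose cells exit the cycle and fuse in low serum. They are 6 ligand genes (Mstn, Gdf11, Inhba, Tgfb1, Tgfb2 and Tgfb3), the ligand antagonist Fst, and 3 receptor genes (Acvr2b, Tgfbr1 and Tgfbr2). All 10 were found among the 55450 gene IDs of the table, and all 10 were among the 17912 genes that passed the filter on low counts. Mstn passed it only through libraries of the edited lines, so its control levels lie at the limit of detection.

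3 lines were sequenced as proliferating myoblasts and as myotubes on day 3 in low-serum medium, with 3 libraries (A, B and C) in each of the 6 groups. The control line was a sorted, EGFP-positive population that had received the pX458 vector, which carries Cas9 and EGFP, without a guide. The other lines were each 1 clone, edited with a pair of guides against the regulatory region just upstream of Meg3, a long noncoding RNA gene of the imprinted Dlk1-Dio3 region. Line 2-4 is labelled an overexpressor and line 2-7 a knockout. Line and clone cannot be told apart. The labels do not say whether the 3 libraries of a group came from separate cultures, so the p-values measure the spread between these libraries, which may be technical. Meg3 itself had 5222 to 7763 counts in each of the 6 overexpressor libraries and 0 counts in all 6 control and all 6 knockout libraries, so the direction of the knockout rests on its label. Totals ran from 41544358 to 79140702 counts per library. At that depth a count of 0 allows at most 3 counts, or 0.0375 to 0.0693 CPM (counts normalised for sequencing depth with TMM factors), for counting error only. The 8 muscle markers were detected in all groups, and their summed level rose from 1570 to 1810 CPM in control myoblasts to 14200 to 14600 CPM in control myotubes. In control myotubes the sum rests largely on Acta1 and Myh3, with means of 5340 and 4410 CPM. In control and overexpressor myoblasts it rests largely on Des, with means of 913 and 2100 CPM. Not every marker rose: from control myoblasts to control myotubes, mean Myf5 went from 25.5 to 6.2 CPM and mean Myod1 from 208 to 216 CPM. The summed level was 3090 to 3900 CPM in overexpressor myoblasts, 11400 to 14200 CPM in knockout myoblasts, 22500 to 25500 CPM in overexpressor myotubes and 33400 to 40800 CPM in knockout myotubes. The part of this difference in muscle marker level in the results below was not tested. Among 7 markers of other cell types, Epcam and Sox10 had 0 counts in all libraries and the summed level was at most 0.565 CPM.

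Ligands of the TGF-beta superfamily are secreted dimers that bring together a type II and a type I receptor, which are serine/threonine kinases. The type I receptor then phosphorylates Smad2 and Smad3, which enter the nucleus with Smad4. Myostatin (Mstn) is the classical inhibitor of muscle growth, and Gdf11 is its closest relative. Both bind the activin type II receptors, Acvr2b among them, as does activin A, the dimer encoded by Inhba. Follistatin (Fst) binds and neutralises activins, myostatin and Gdf11. The TGF-beta isoforms signal through Tgfbr2 and Tgfbr1, and are secreted in a latent form. In myoblast cultures, both kinds of ligand are known to hold back differentiation.

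Promoter windows were read for 8 of the 10 genes from the RefSeq table of GRCm38.p6. Fst and Tgfb3 had no entry. Those of Mstn and Gdf11, which are sister genes, are shown as the 250 bases before the annotated start. Each E-box (CANNTG, the kind of site that MyoD family factors bind) is in capitals.
Mstn, chr1:53061390-53061639, plus strand: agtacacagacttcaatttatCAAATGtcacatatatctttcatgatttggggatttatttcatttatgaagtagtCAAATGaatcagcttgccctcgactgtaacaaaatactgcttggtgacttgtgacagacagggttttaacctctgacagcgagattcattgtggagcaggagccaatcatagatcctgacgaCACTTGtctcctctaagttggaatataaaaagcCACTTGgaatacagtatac
Gdf11, chr10:128891719-128891968, minus strand: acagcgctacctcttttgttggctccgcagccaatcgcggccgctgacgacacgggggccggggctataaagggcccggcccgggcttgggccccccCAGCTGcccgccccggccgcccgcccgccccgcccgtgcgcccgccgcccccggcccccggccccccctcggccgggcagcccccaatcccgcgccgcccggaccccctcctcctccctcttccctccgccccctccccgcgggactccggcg
The Mstn window held 4 E-boxes, 2 matches to CAGAC (a Smad-binding sequence) and 1 match to TGANTCA (an AP-1 sequence, here overlapping the end of the second E-box), counted on both strands, with 38.4% G and C. The Gdf11 window held 1 E-box and neither of the other motifs, with 81.2% G and C, and the Inhba window, chr13:16011601-16011850, held none of the 3. Among 32851 windows of the same length in the table, 66.2% held an E-box, 42.2% CAGAC and 6.7% TGANTCA. A match is a description of the letters and not a measured binding site.

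Levels compared between genes were set per length of exon, as RPKM (CPM per 1000 bases of the merged exons). In control myoblasts Tgfb3 had the highest RPKM of the 10 genes at 73.3, followed by Tgfbr2 at 43 and Tgfb1 at 33.2. Acvr2b was at 0.61 RPKM, and Mstn was at the limit of detection. In a bulk library, fewer cells of a type and less RNA per cell cannot be told apart, and a day 3 culture can hold both myotubes and unfused cells.

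**Figure D1:**
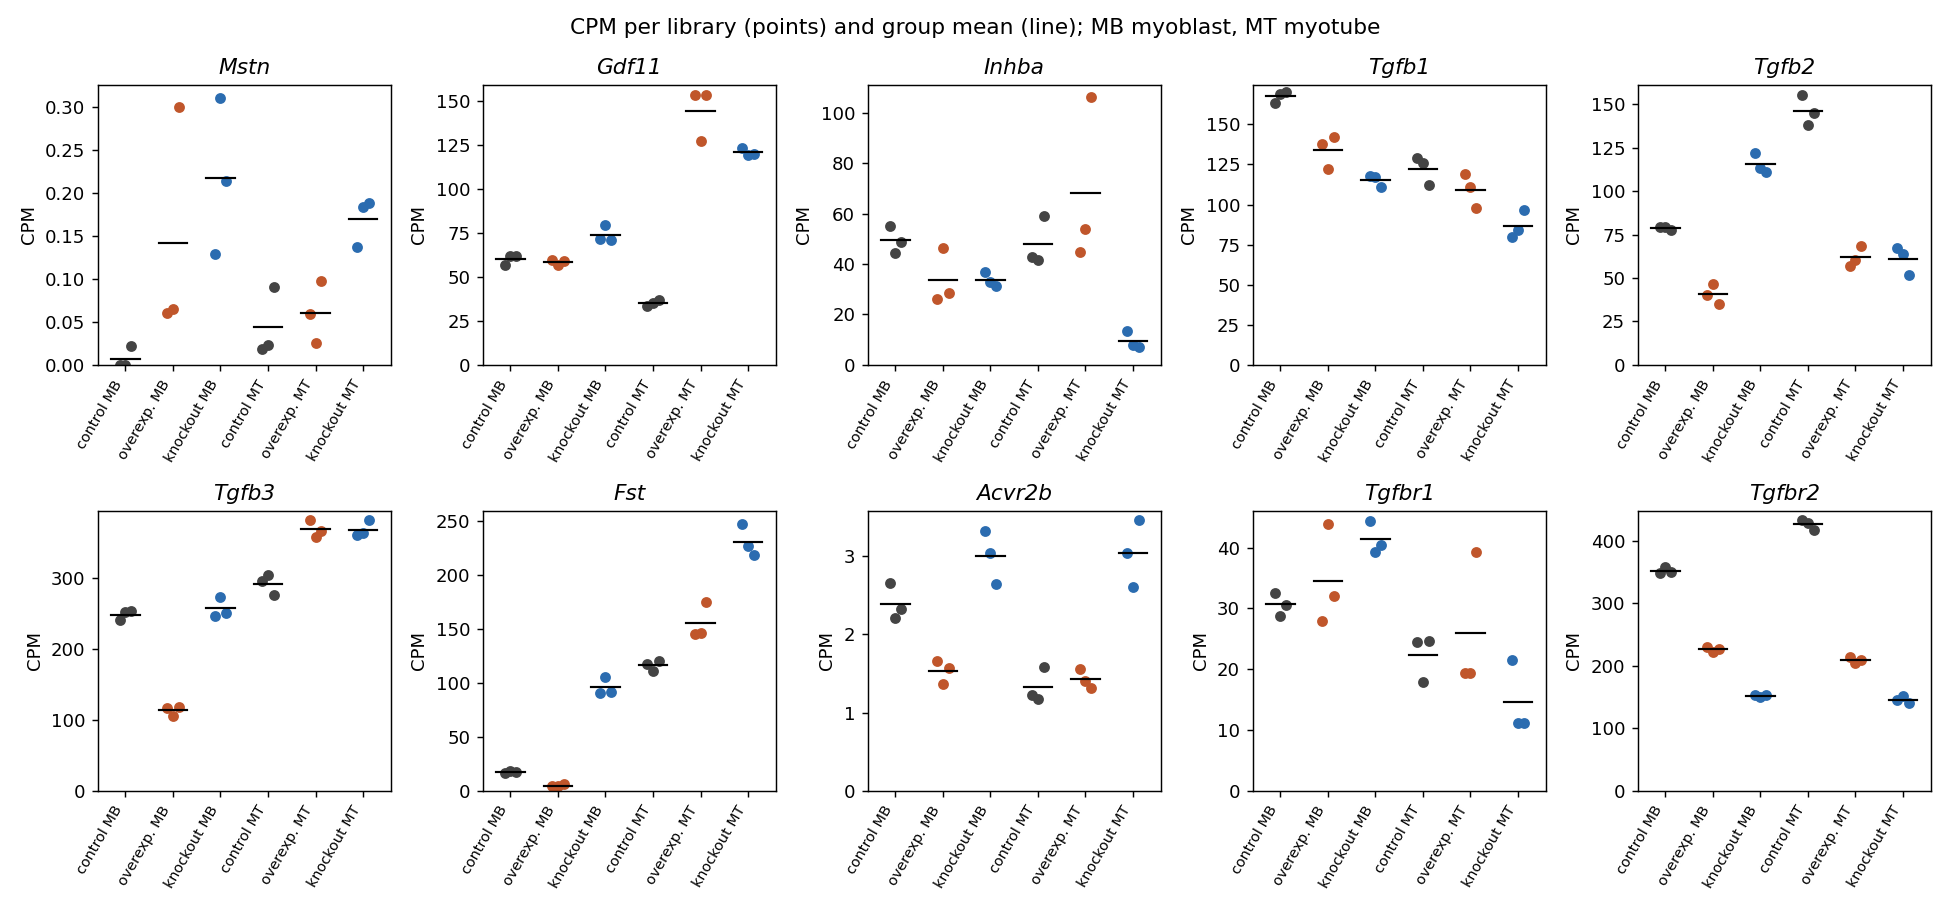
Level of each of the 10 genes in all 18 libraries (points; y axis, CPM from 0, scaled per gene) with the mean of each group (line), for myoblasts and myotubes of the control, overexpressor and knockout lines. Libraries of a group lie close together for most genes, such as Tgfbr2 and Fst, and spread widely for Inhba and Tgfbr1 in overexpressor and knockout myotubes.

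Myostatin transcripts were rare throughout. Mstn (ENSMUSG00000026100; chromosome 1, 53061640 to 53068079, plus strand) had 0, 0 and 1 counts in control myoblasts, 3, 3 and 13 in overexpressor myoblasts and 6, 17 and 12 in knockout myoblasts. In myotubes it had 1, 1 and 5 counts in control, 4, 2 and 7 for the overexpressor and 8, 11 and 9 in the knockout. Each knockout myotube library held more counts than any other myotube library, the clones overlapped as myoblasts, and no library passed 17 counts. Pooled over libraries and scaled to depth, the ratio to control in myoblasts was 20.4 in the overexpressor (95% exact interval 3.25 to 849) and 33.4 in the knockout (5.61 to 1360), against 1 count in all. In myotubes the ratio to control was 1.29 (0.477 to 3.81) for the overexpressor and 3.66 (1.56 to 9.92) in the knockout. Differentiation of the control line took the pooled count from 1 to 7 (ratio 6.93, 0.89 to 312), and the ratio of overexpressor to knockout myotubes was 0.352 (0.167 to 0.702). These intervals cover counting error only and not the spread between libraries. Since Mstn passed the filter only through libraries in which it was higher, no test of it is given and it is left out of the counts of members called.

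Gdf11, the sister gene of Mstn (ENSMUSG00000025352; chromosome 10, 128882295 to 128891718, minus strand), fell with differentiation in the control line and rose in both clones. Its level was 56.6, 61.9 and 61.7 CPM in control myoblasts and 33.5, 35.1 and 37 CPM in control myotubes. The overexpressor had 59.4, 56.9 and 59.3 CPM as myoblasts and 153, 127 and 153 CPM as myotubes. The knockout had 71.3, 79.4 and 70.8 CPM as myoblasts and 123, 119 and 120 CPM as myotubes. All 6 myotube libraries of the clones were above every myoblast library, and the control myotubes were the lowest of the 18. Adjusted p-values here and in what follows are from edgeR's quasi-likelihood test with Benjamini-Hochberg adjustment over all tested genes. Against control myotubes the log2 fold change (log2FC) was 2.04 in the overexpressor (SE 0.08, adjusted p = 1.57e-13) and 1.78 in the knockout (SE 0.08, adjusted p = 6.75e-13), folds of 4.1 and 3.43. In myoblasts the knockout was higher by 0.3 (SE 0.07, adjusted p = 0.00218), and the overexpressor did not pass the test (log2FC -0.038, adjusted p = 0.733). From myoblasts to myotubes log2FC was -0.77 in the control, 1.3 for the overexpressor and 0.71 in the knockout (SE 0.07 each), and each passed the test.

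Inhba encodes the beta A subunit that forms activin A (chromosome 13, 16011851 to 16031621, plus strand). It was low in knockout myotubes alone, with 13.5, 7.9 and 7.23 CPM there, against 42.7, 41.4 and 59.2 CPM in control myotubes. Overexpressor myotubes had 44.7, 53.8 and 106 CPM, so that library C stood well above the others. The myoblast libraries lay between 26.3 and 55.1 CPM in all 3 lines. Knockout myotubes did not overlap any other group, and log2FC against control myotubes was -2.32 (SE 0.33, adjusted p = 2e-05), a 5-fold lower level. Against overexpressor myotubes it was lower by a log2 difference of 2.83 (SE 0.34, adjusted p = 5.71e-06). The overexpressor myotubes did not differ from control beyond the spread (log2FC 0.51, adjusted p = 0.177), nor did either clone in myoblasts (both -0.55, adjusted p = 0.184 and 0.156). Differentiation gave log2FC -1.82 in the knockout (SE 0.33, adjusted p = 0.000206) and 1.01 in the overexpressor (SE 0.31, adjusted p = 0.011). The latter was 0.59 without overexpressor myotube library C (adjusted p = 0.0574), and it also missed the threshold without overexpressor myoblast library A (adjusted p = 0.0501) or when only the groups compared were fitted (adjusted p = 0.0528).

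The 3 TGF-beta isoform genes each moved in their own way. Tgfb1 (chromosome 7, 25687002 to 25705077, plus strand) was highest in control myoblasts, at 163, 169 and 170 CPM, against 138, 122 and 142 CPM in overexpressor and 118, 117 and 111 CPM in knockout myoblasts. In myotubes it was 129, 126 and 112 CPM in control, 119, 111 and 97.6 CPM for the overexpressor and 79.8, 84 and 96.3 CPM in the knockout. The knockout lay under control without overlap in both stages, with log2FC -0.53 in myoblasts and -0.5 in myotubes (SE 0.08 each, adjusted p = 3.15e-05 and 4.74e-05). The overexpressor was lower in myoblasts (log2FC -0.32, SE 0.08, adjusted p = 0.00442), and in myotubes its range overlapped that of the control (log2FC -0.16, adjusted p = 0.107). Tgfb1 fell with differentiation in all 3 lines, by 0.45 in control, 0.29 for the overexpressor and 0.42 in the knockout on the log2 scale. The fall in the overexpressor did not pass the threshold with DESeq2 size factors (adjusted p = 0.0723), by DESeq2's Wald test (0.0868, adjusted p) or without myotube library C (adjusted p = 0.102).

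Tgfb2 (chromosome 1, 186622792 to 186705989, minus strand) was lower in the overexpressor in both stages, and in the knockout it was higher than control in myoblasts and lower in myotubes. Myoblast levels were 79.2, 79.3 and 77.8 CPM in control, 40.3, 46.6 and 35 CPM for the overexpressor and 122, 113 and 111 CPM in the knockout. Myotube levels were 155, 138 and 145 CPM in control, 56.7, 60.2 and 68.5 CPM for the overexpressor and 67.3, 63.9 and 51.5 CPM in the knockout. The 3 myoblast groups were fully separate, whereas the myotubes of both clones overlapped each other well under control. In myoblasts log2FC against control was -0.96 in the overexpressor (SE 0.1, adjusted p = 6.13e-07) and 0.55 in the knockout (SE 0.1, adjusted p = 0.000173). In myotubes it was -1.24 and -1.26 (SE 0.1 each, adjusted p = 9.15e-09 and 6.24e-09). Differentiation raised Tgfb2 in control (log2FC 0.89) and in the overexpressor (log2FC 0.61) and lowered it in the knockout (log2FC -0.93), with an SE of 0.1 and a call in each line.

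Tgfb3 (chromosome 12, 86056745 to 86079041, minus strand) stood out in overexpressor myoblasts, with 117, 105 and 118 CPM against 240, 252 and 253 CPM in control and 247, 273 and 251 CPM in knockout myoblasts. Myotube levels were 295, 304 and 276 CPM in control, 381, 358 and 366 CPM for the overexpressor and 360, 363 and 381 CPM in the knockout. Overexpressor myoblasts were the lowest 3 libraries of the 18, and as myotubes the same line overlapped the knockout above control. The overexpressor was 2.19-fold lower than control as myoblasts (log2FC -1.13, SE 0.06, adjusted p = 5.17e-11). In myotubes both clones were higher than control, by 0.34 and 0.33 (SE 0.06 each, adjusted p = 0.000114 and 9.44e-05). Differentiation raised Tgfb3 by 1.7 for the overexpressor and by 0.52 in the knockout (SE 0.06 each). The rise of 0.23 in control (adjusted p = 0.00255) was lost when libraries were scaled to their totals (log2FC -0.0085, adjusted p = 0.902). Of the Tgfb3 exons, 420 bases are shared with genes on the opposite strand, as are 124 bases of Tgfb2 and 115 bases of Fst, and the strand setting of the counting was not given in the sources used here, so such reads cannot be told apart.

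Per exon length, Tgfb3 made up the largest share of the summed RPKM of the 3 isoforms in every group. Among myoblasts its share was 61% in the control line, 50% in the overexpressor line and 63.9% in the knockout line, and 63.5%, 77.1% and 79.7% in the corresponding myotubes. The share of Tgfb1 was 27.6%, 39.5% and 19.3% in myoblasts and 17.9%, 15.3% and 12.6% in myotubes, in the same order. The longest run of identical bases shared by a pair of isoform transcripts was 12 bases for Tgfb1 and Tgfb2 and 15 bases for the other pairs. The summed level was 67 RPKM in overexpressor myoblasts and between 119 and 141 RPKM in the other 5 groups.

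Follistatin had the widest range of the well-detected members. Fst (chromosome 13, 114452290 to 114458951, minus strand) was at 16.1, 17.8 and 17.4 CPM in control, 4.13, 4.14 and 6.12 CPM in overexpressor and 90.8, 105 and 90.9 CPM in knockout myoblasts. As myotubes the lines had 117, 111 and 120 CPM in control, 145, 146 and 175 CPM for the overexpressor and 247, 226 and 218 CPM in the knockout. All 6 groups were separate from their neighbours in the order of levels. In myoblasts log2FC against control was -1.84 in the overexpressor (SE 0.12, adjusted p = 1.03e-09) and 2.48 in the knockout (SE 0.12, adjusted p = 4.67e-12), so the clones differed 20-fold (log2FC -4.32, SE 0.13, adjusted p = 1.57e-14). In myotubes both were higher than control, by 0.42 (SE 0.11, adjusted p = 0.00272) and 0.99 (SE 0.11, adjusted p = 2.78e-07). Fst rose with differentiation in every line, with folds of 6.78 in control, 32.4 for the overexpressor and 2.41 in the knockout (log2FC 2.76, 5.02 and 1.27).

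**Figure D2:**
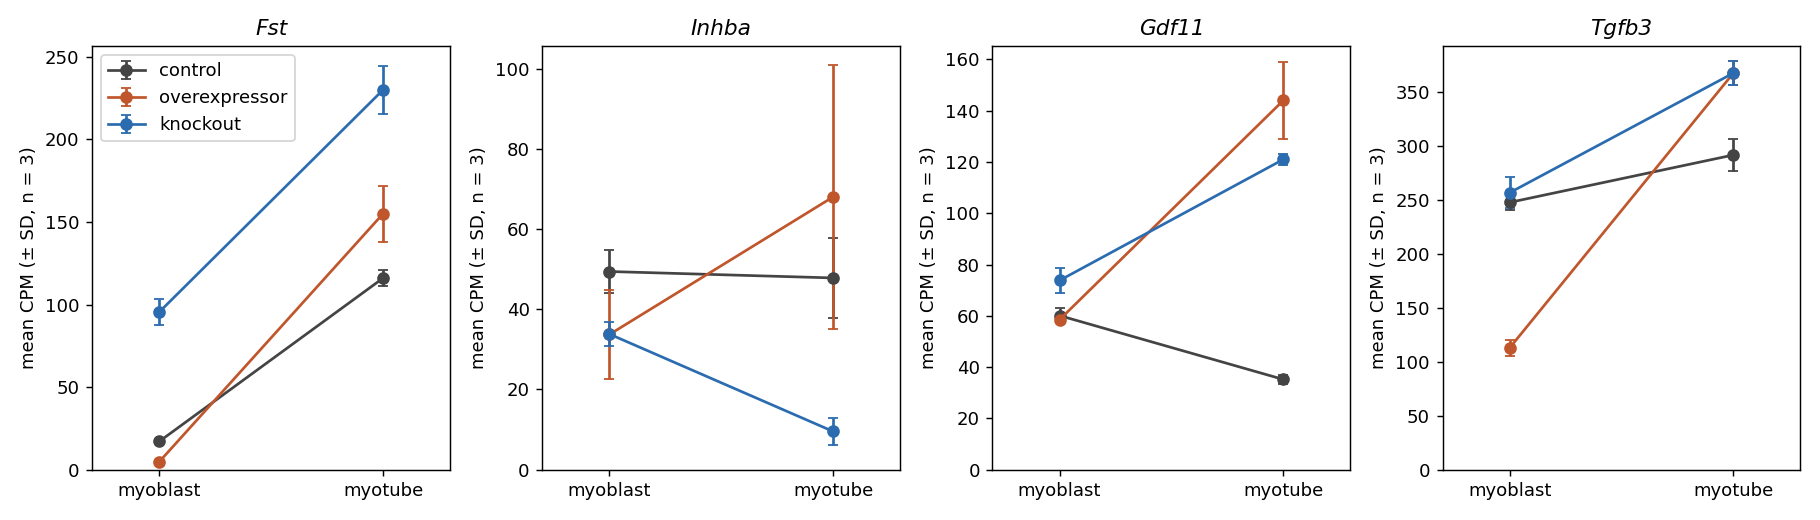
Mean level (y axis, CPM from 0; error bars, SD over 3 libraries) of Fst, Inhba, Gdf11 and Tgfb3 in myoblasts and myotubes, with a line joining the stages of each of the 3 lines. Fst rises in all lines from different starting levels, Inhba falls in the knockout, Gdf11 falls in the control and rises in both clones, and Tgfb3 rises most in the overexpressor.

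The receptors differed in how much they varied. Acvr2b, the type II receptor bound by activins, myostatin and Gdf11 (chromosome 9, 119402118 to 119434995, plus strand), had 2.66, 2.21 and 2.32 CPM in control, 1.66, 1.36 and 1.57 CPM in overexpressor and 3.33, 3.04 and 2.65 CPM in knockout myoblasts. Its myotube levels were 1.23, 1.17 and 1.59 CPM in control, 1.56, 1.4 and 1.32 CPM for the overexpressor and 3.04, 2.61 and 3.47 CPM in the knockout. It fell with differentiation in control (log2FC -0.84, SE 0.17, adjusted p = 0.000226), while the knockout kept overlapping ranges (log2FC 0.014, adjusted p = 0.945). Knockout myotubes were 2.27-fold higher than control (log2FC 1.18, SE 0.16, adjusted p = 4.59e-06). In myoblasts the overexpressor was lower than control (log2FC -0.65, SE 0.16, adjusted p = 0.00395), and the knockout did not pass the test (log2FC 0.33, adjusted p = 0.09).

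Tgfbr2, the TGF-beta type II receptor (chromosome 9, 116084293 to 116175360, minus strand), was lower in both clones in both stages. Control libraries held 349, 358 and 350 CPM as myoblasts and 434, 429 and 417 CPM as myotubes. The overexpressor held 230, 223 and 227 CPM and then 215, 205 and 209 CPM, and the knockout 154, 150 and 153 CPM and then 145, 152 and 140 CPM. Every control library was above every overexpressor library, and every overexpressor library above every knockout library. In myoblasts log2FC against control was -0.64 for the overexpressor and -1.21 in the knockout (SE 0.05 each, adjusted p = 3.78e-09 and 4.63e-13). In myotubes it was -1.03 and -1.55 (SE 0.05 each, adjusted p = 2.89e-12 and 1.32e-14). Differentiation moved it little: log2FC was 0.28 in control, which became 0.035 under library totals (adjusted p = 0.549), and -0.11 in the overexpressor (adjusted p = 0.0462). The latter call was lost without any 1 of the 6 overexpressor libraries (adjusted p = 0.0505 to 0.342) and under 5 of the 6 other alternatives, such as DESeq2 size factors (adjusted p = 0.685).

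Tgfbr1, the type I receptor that pairs with Tgfbr2 (chromosome 4, 47353222 to 47414931, plus strand), had 32.6, 28.8 and 30.5 CPM in control, 27.9, 43.8 and 32 CPM in overexpressor and 44.4, 39.2 and 40.4 CPM in knockout myoblasts. In myotubes it was 24.4, 17.9 and 24.7 CPM in control, 19.4, 19.3 and 39.3 CPM for the overexpressor and 21.5, 11.1 and 11.2 CPM in the knockout. Each group overlapped its neighbour in the order of levels, although knockout myoblasts lay above control myoblasts without overlap. No clone passed the test against control in either stage (log2FC 0.17, 0.43, 0.22 and -0.61, adjusted p = 0.687, 0.23, 0.55 and 0.0805). Leaving out 1 library, the last value ran from -1 to -0.44 (adjusted p = 0.00782 to 0.255) and became a call in 1 fit. Tgfbr1 fell with differentiation in the knockout (log2FC -1.5, SE 0.3, adjusted p = 0.000481). In the overexpressor its fall was not called, but leaving out 1 library gave log2FC from -0.79 to -0.2 (adjusted p = 0.0122 to 0.613). The difference between the clones in myotubes (log2FC 0.83, SE 0.29, adjusted p = 0.0253) was 0.43 without overexpressor library C (adjusted p = 0.157) and was also lost without knockout library B (adjusted p = 0.104) or C (adjusted p = 0.111), with no filter on low counts (adjusted p = 0.0596) and when only the groups compared were fitted (adjusted p = 0.0983).

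The spread of Inhba and Tgfbr1 within groups followed the same libraries. Overexpressor myoblast B, overexpressor myotube C and knockout myotube A were the highest of their groups for both genes. In these libraries, genes with long transcripts (at least 6931.5 bases of exon, 2753 genes) also stood higher against their group than genes with short ones (at most 2686 bases, 2754 genes), with median log2 differences of 0.182, 0.182 and 0.191. The opposite was seen in knockout myotube C (-0.21) and overexpressor myotube A (-0.154). Merged exons span 6390 bases in Inhba and 6534 bases in Tgfbr1, both shorter than the long genes. Tgfbr2, the longest member at 8187 bases, did not follow these libraries: overexpressor myoblast B was the lowest of its group (223 CPM), and overexpressor myotube C (209 CPM) and knockout myotube A (145 CPM) lay between the others. The part of this library property in the results for both genes was not tested.

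**Figure D3:**
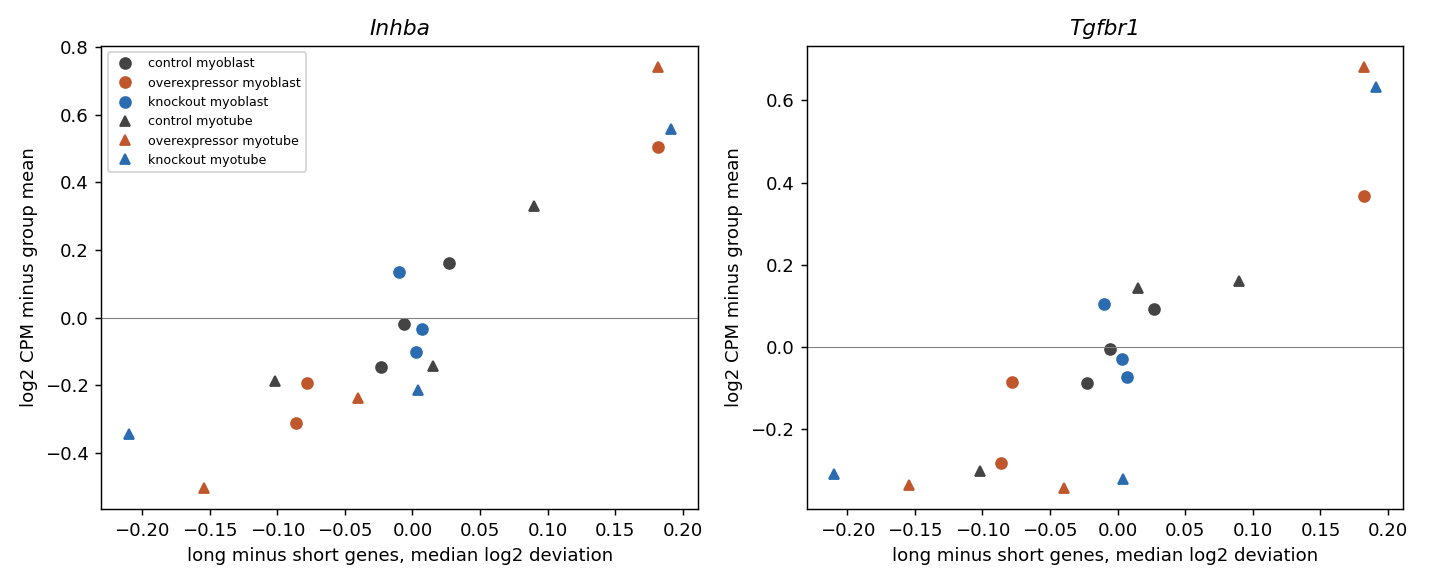
Deviation of Inhba and Tgfbr1 from their group mean in each of the 18 libraries (y axis, log2 CPM) against the median deviation of long genes minus that of short genes in the same library (x axis, log2). The libraries at 0.182 to 0.191 on the x axis have the highest values of both genes within their groups.

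Counted over the 9 members other than Mstn, 6 were called in overexpressor against control myoblasts, with 0 higher and 6 lower, beside 40.4% of all tested genes called (20.7% higher and 19.7% lower). In knockout against control myoblasts, 3 members were higher and 2 lower, beside 53.0% of all genes (26.4% higher, 26.6% lower). In myotubes, 3 members were higher and 2 lower in the overexpressor, beside 57.1% (26.2% higher, 30.9% lower), and 4 were higher and 4 lower in the knockout, beside 68.0% (31.0% higher, 37.0% lower). The median log2FC of the 9 genes was -0.64, 0.3, 0.22 and -0.5 in these 4 comparisons, against 0.02, 0.02, -0.04 and -0.07 over all tested genes. The comparisons within a stage share their control libraries. The members were chosen with earlier results of these data known, so these counts and medians are a description and not a test. Tgfbr2 was lower than control in all 4, and of the other 8 none was called in the same direction in all 4.

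**Figure D4:**
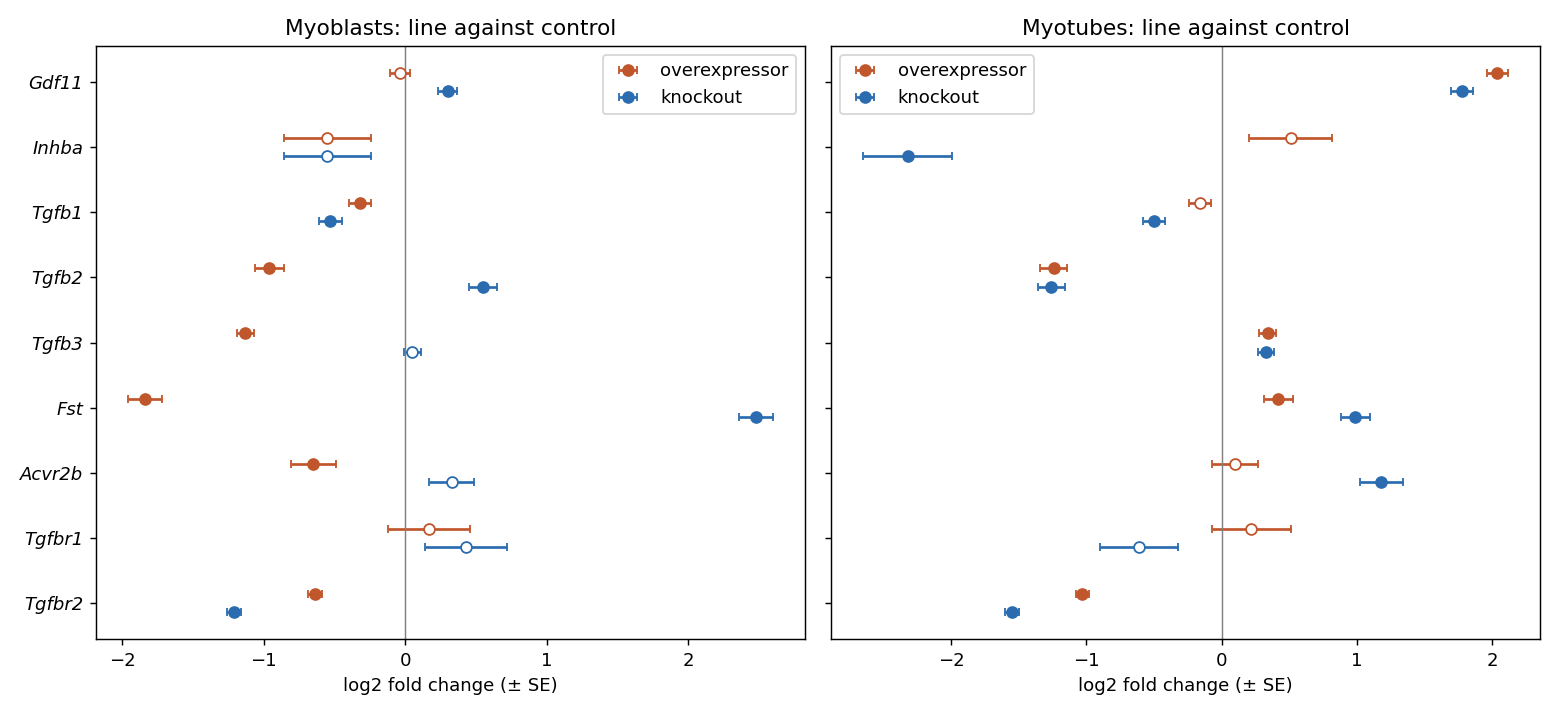
Log2 fold change of 9 members (x axis; bars, SE) in both clones against control in myoblasts and in myotubes, with filled points for an adjusted p under 0.05. Mstn is left out because its control counts lie at the limit of detection. Tgfbr2 is lower in all 4 comparisons, and Fst and Tgfb2 differ in sign between the clones in myoblasts.

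Between the clones, 2 members were higher and 5 lower in the overexpressor than in the knockout as myoblasts, beside 52.6% of all genes called (25.7% higher, 26.9% lower). As myotubes 5 were higher and 2 lower, beside 59.7% (30.6% higher, 29.1% lower). Tgfbr2 and Tgfb1 were higher in the overexpressor in both stages, although the Tgfb1 call in myoblasts (log2FC 0.21, adjusted p = 0.0449) was lost with DESeq2 size factors (adjusted p = 0.0508), with no filter on low counts (adjusted p = 0.0718) and by DESeq2's Wald test (adjusted p = 0.0585). It was also lost without overexpressor library A or C or any 1 of the 3 knockout libraries (adjusted p = 0.069 to 0.16). Fst and Acvr2b were lower in both stages (Acvr2b log2FC -0.97 and -1.09).

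With differentiation, 4 members rose and 3 fell in control, beside 62.8% of all genes called (33.9% higher, 28.8% lower). In the overexpressor 5 rose and 2 fell, beside 62.8% (29.8% higher, 33.0% lower), and in the knockout 3 rose and 4 fell, beside 65.4% (29.8% higher, 35.6% lower). Fst and Tgfb3 rose and Tgfb1 fell in all 3 lines, with the exceptions given above for Tgfb3 in control and Tgfb1 in the overexpressor. The response itself, tested as an interaction, differed from control for 5 members in the overexpressor (4 higher and 1 lower), beside 39.0% of all genes (16.6% higher, 22.3% lower). It differed for 8 members in the knockout (3 higher and 5 lower), beside 50.1% (20.2% higher, 29.9% lower). Between the clones it differed for 6 members, all with the higher value in the overexpressor, beside 46.7% (24.3% higher, 22.4% lower). Tgfb1 showed no called difference in response between any pair of lines (adjusted p = 0.315, 0.831 and 0.408).

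The other genes of the pathway were read from a list of 35, of which 33 could be tested; Nodal and Acvr1c did not pass the filter. Of the 33, 4 were higher and 17 lower in overexpressor myoblasts, 6 higher and 21 lower in knockout myoblasts, 7 higher and 22 lower in overexpressor myotubes and 8 higher and 22 lower in knockout myotubes. The shares over all tested genes were 20.7% higher and 19.7% lower, 26.4% and 26.6%, 26.2% and 30.9%, and 31.0% and 37.0% in that order. The median log2FC of the list was -0.34, -0.34, -0.4 and -0.54, against 0.02, 0.02, -0.04 and -0.07 over all tested genes. The 7 genes listed under ligand latency and activation (Ltbp1 to Ltbp4, Thbs1, Furin and Bmp1) had 6, 7, 6 and 6 members lower and none higher. Of all tested genes, 19.7%, 26.6%, 30.9% and 37.0% were lower. Both co-receptors, Tgfbr3 and Eng, were lower in all 4 comparisons. The list was chosen with earlier results of these data known, so its counts and medians are a description and not a test.

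Among the ligand subunits, Inhbb, which forms activin B, was at 73.9 ± 0.55 CPM in control, 24.6 ± 1.78 CPM in overexpressor and 83.7 ± 6.31 CPM in knockout myoblasts, and at 28.2 ± 0.822, 41.5 ± 5.42 and 120 ± 3.05 CPM in the corresponding myotubes (SD, n = 3). Knockout myotubes, where Inhba was lowest, thus held the highest Inhbb level, with log2FC 2.09 against control (SE 0.09, adjusted p = 4.53e-13). Inha, whose product pairs with a beta subunit to give inhibin in place of activin, was 2.71 higher in knockout myoblasts and 2.73 higher in knockout myotubes on the log2 scale (SE 0.14 each, adjusted p = 1.68e-11 and 9.56e-12), and 1.18 higher in overexpressor myotubes (SE 0.14, adjusted p = 8.3e-07). Acvr1b, the type I receptor for activins, rose by 0.48 in knockout myotubes (SE 0.08, adjusted p = 4.23e-05) and was not called in myoblasts (log2FC 0.17 and 0.15). Its call in overexpressor myotubes (log2FC 0.23, adjusted p = 0.0228) was lost with no filter on low counts (adjusted p = 0.0762) and without control library A or C or overexpressor library A or B (adjusted p = 0.0502 to 0.0959).

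Of the genes whose products hold or present ligands, Tgfbr3 and Fstl3 were lower in both clones in both stages. Tgfbr3, or betaglycan, which presents TGF-beta2 to its receptors, was at 22.2 ± 4.31 CPM in control myotubes, 0.187 ± 0.148 CPM for the overexpressor and 3.16 ± 0.119 CPM in the knockout (SD, n = 3), with log2FC -6.82 and -2.81 (SE 0.31 and 0.23). Without overexpressor myotube library B the first was -7.65. In myoblasts its log2FC was -4.47 and -1.22. Fstl3, a secreted relative of follistatin, was at 65.6 ± 6.36 CPM in control, 2.72 ± 1.47 CPM in overexpressor and 11.9 ± 0.217 CPM in knockout myotubes (log2FC -4.6 and -2.46, SE 0.31 and 0.27). Wfikkn2, an antagonist of myostatin and Gdf11, was at 0.167 ± 0.116 CPM in control myotubes, 0.723 ± 0.075 for the overexpressor and 2.55 ± 0.401 CPM in the knockout (SD, n = 3). Its log2FC was 2.16 and 3.97, or 2.8 and 4.62 without control myotube library B, against 4 to 13 counts per control myotube library. In knockout myoblasts log2FC was 2.79, or 3.53 without control myoblast library A, against 1 to 5 counts per control library. Wfikkn2 passed the filter through libraries of the clones, where it was higher. Its values are therefore a description and not a test, although the counts over the list include it. The decoy receptor Bambi was lower in the overexpressor in both stages (log2FC -3.1 and -1.6) and higher in knockout myotubes (log2FC 1.26). Its counts were low, at 10 to 19 per overexpressor myoblast library and 13 to 16 per overexpressor myotube library.

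A pair of matrix proteins changed with stage as well as with line. Dcn, or decorin, which binds TGF-beta and myostatin, was at 1.88 ± 0.348 CPM in control myoblasts and 46.6 ± 6.67 CPM in control myotubes. The overexpressor had 12.8 ± 0.65 and 6.53 ± 1.96 CPM, above control as myoblasts (log2FC 2.77) and under it as myotubes (log2FC -2.84). Knockout myoblasts, at 5.3 ± 0.233 CPM, were also above control (log2FC 1.49, adjusted p = 2.79e-06). Knockout myotubes, at 48.2 ± 4.69 CPM, did not differ from control beyond the spread (log2FC 0.047, adjusted p = 0.804). Ltbp2, a member of the latent TGF-beta binding protein family, had log2FC -4.21 in knockout myoblasts and -3.29 in knockout myotubes (SE 0.12 each), at 20.5 ± 0.457 against 380 ± 20.8 CPM and 2.93 ± 0.189 against 28.6 ± 1.24 CPM (SD, n = 3). Thbs1, thrombospondin 1, which can activate latent TGF-beta, was at 3730 ± 233 CPM in control, 943 ± 110 CPM in overexpressor and 1460 ± 35.4 CPM in knockout myoblasts, and at 3260 ± 257, 1760 ± 165 and 483 ± 68.5 CPM in the corresponding myotubes. It was lower in each clone and stage.

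Of the signal transducers, Smad4, the shared partner, and Smad7, the inhibitory Smad that is itself a target of the pathway, were lower in both clones in both stages. Smad4 log2FC was -0.4 and -0.67 in overexpressor and knockout myoblasts and -0.82 and -0.87 in myotubes (SE 0.07 each). Smad7 was at 33 ± 1.12 CPM in control, 14.1 ± 1.44 CPM in overexpressor and 7.02 ± 0.553 CPM in knockout myotubes (SD, n = 3), with log2FC -1.23 and -2.23 (SE 0.09 and 0.1). Smad3 was lower in both clones as myoblasts (log2FC -0.54 and -0.56) and higher in knockout myotubes (log2FC 0.46, SE 0.05, adjusted p = 5.63e-07). In overexpressor myotubes its log2FC was -0.28, a call lost when only the groups compared were fitted (adjusted p = 0.0771). Smad2 was lower in the knockout (log2FC -0.29 in myoblasts and -0.36 in myotubes) and not called in overexpressor myoblasts (log2FC -0.23, adjusted p = 0.0508). Its call in overexpressor myotubes (log2FC -0.23, adjusted p = 0.0376) was lost with DESeq2 size factors (log2FC -0.12, adjusted p = 0.241) and without control library A or C or any 1 of the 3 overexpressor libraries (adjusted p = 0.0617 to 0.175). Skil, which encodes the Smad repressor SnoN, fell by 1.31 in knockout myotubes (SE 0.24, adjusted p = 0.000196) and was not called in the other 3 comparisons (log2FC -0.07, 0.31 and 0.28).

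Opposite-strand genes share 1157 of the 2445 exonic bases of Fstl3, 665 of 2861 in Ccn2, 764 of 8184 in Ltbp2 and 208 of 6073 in Thbs1, so reads there cannot be told apart if strand was not used. The target genes Ccn2 and Tgfbi did not move together. Ccn2, or connective tissue growth factor, was higher in each comparison, at 30.9 ± 6.8 CPM in control, 346 ± 140 CPM in overexpressor and 292 ± 13.4 CPM in knockout myotubes (log2FC 3.49 and 3.24, SE 0.24 each) and with log2FC 1.15 and 2.76 in myoblasts. Tgfbi, named for its induction by TGF-beta, was lower in knockout myoblasts and in the myotubes of both clones (log2FC -3.25, -2.53 and -3.3, SE 0.31, 0.24 and 0.27). It was sparse, at 1.65 ± 0.407 CPM in control and 0.174 ± 0.0458 CPM in knockout myoblasts, with 7 to 10 counts per knockout library. Myotube levels were 3.41 ± 0.804 CPM in control, 0.593 ± 0.168 CPM in overexpressor and 0.346 ± 0.0782 CPM in knockout (SD, n = 3).

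**Figure D5:**
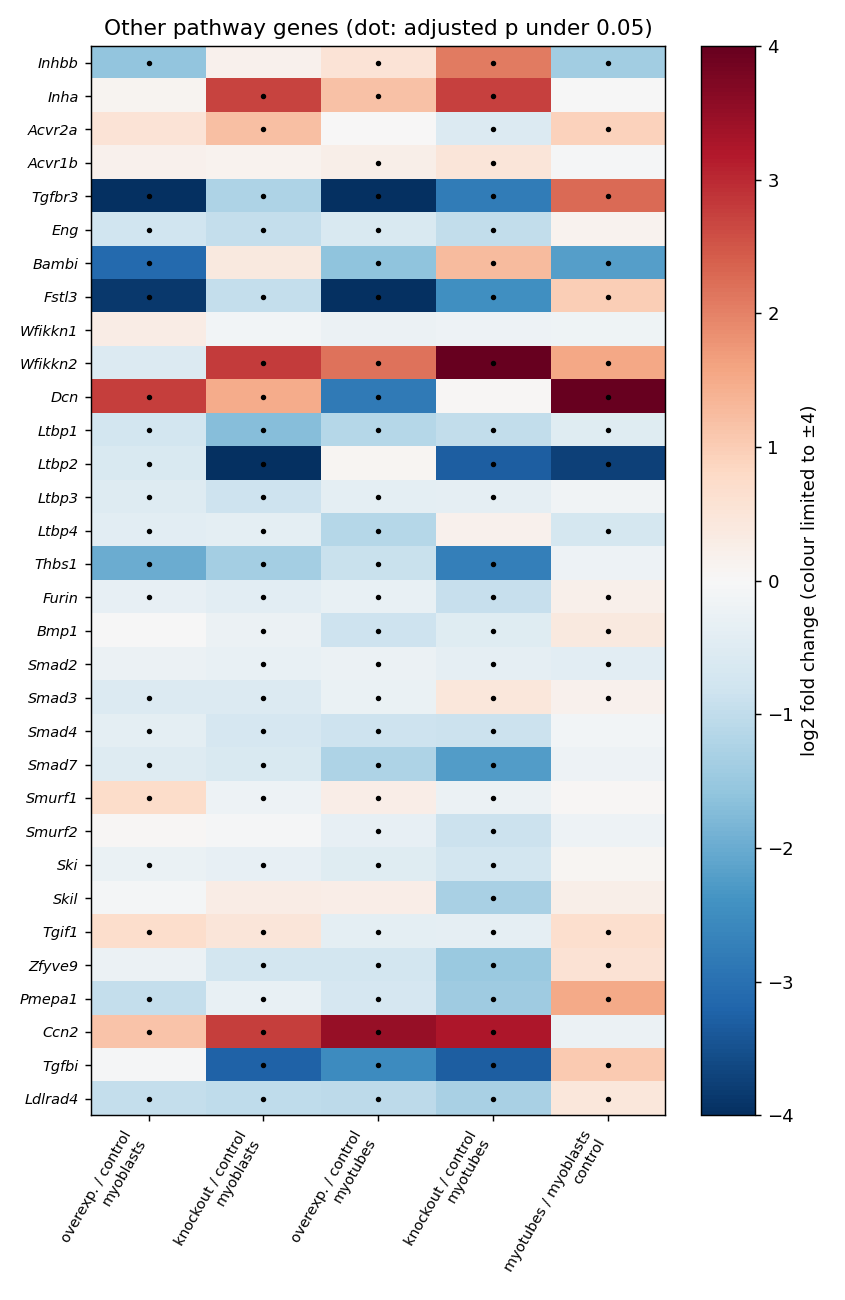
Log2 fold change of 32 of the tested other pathway genes (rows, grouped by role) in 5 comparisons (columns), with the colour scale limited to 4 in each direction and a dot where the adjusted p was under 0.05. The genes listed under latency and activation and the co-receptors are mostly lower in the clones, and the target genes Ccn2 and Tgfbi differ in sign.

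The genes whose levels most resembled a member's over the 18 libraries were taken by Pearson's r of log2 CPM, given as a description, since the libraries of a group share their line and stage. For Fst they were Fgfr3 (r = 0.993), Pgm5 (r = 0.989) and Prkaa2 (r = 0.989). For Inhba they were Mib1 (r = 0.971), Agtpbp1 (r = 0.968) and Htatsf1 (r = 0.965), among 10986 candidates. For Mstn, whose counts were sparse, no gene passed 0.812 (Dnajb6, followed by Chchd7 at 0.805 and Ttc13 at 0.802).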

How the data were processed

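Polyadenylated RNA of 18 C2C12 libraries (6 groups of 3) was read from the table of raw counts per Ensembl gene that the authors deposited, in which no column was left without a sample. Per the submitters' processing notes, STAR 2.7.9a, featureCounts (Subread 2.0.3), FastQC 0.11.7, DESeq2 1.32.0 and the build mm10 were used. The annotation release and the strand setting are not given in the sources used here, and the deposited variance-stabilised values were not used. Of 55450 gene IDs, 55190 matched GENCODE M21 on GRCm38, which gave positions and exon lengths; the rest held 0.00589% of the counts.

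Counts were fitted with edgeR 4.0.16 in R 4.3.3 (TMM factors 0.895 to 1.08, filterByExpr by group, robust quasi-likelihood), with 1 coefficient per group, 12 residual degrees of freedom and 12 contrasts. P-values were Benjamini-Hochberg adjusted over 17912 genes, with a threshold of 0.05, and SE is the size of the log2 fold change over the square root of F. As a check of the code, the fit was run on counts simulated from its own estimates of the spread. Those counts held no library differences between long and short genes, so the check does not cover them. Promoter sequences came from the RefSeq table, and isoform transcripts were compared in GENCODE M21.

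Members and lists were chosen with earlier results of these data known. Of the other pathway genes, 9 were named whatever they did and the rest where a called change reached 4-fold with at least 1 CPM in the higher group; 1 gene named by it is not reported here, and the counts over the list include it. The 3 most alike genes were given for Mstn, Inhba and Fst, among genes reaching 5 CPM. Alternatives were DESeq2 size factors, library totals, no filter, DESeq2's Wald test (DESeq2 1.42.0), a replicate block, a fit of only the groups compared, and each library left out; for the other pathway genes these were added after seeing the data.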

Additional observations from a re-analysis of the deposited data

Results flagged for a closer look

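The differentiation response (myotubes against myoblasts) differed between lines by an interaction test for the following members. All values are differences of log2 fold changes from edgeR's quasi-likelihood test, with adjusted p in parentheses, and no cause was tested.

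Between the overexpressor and the control, the response was higher by 2.07 for Gdf11 (3.5e-11), 1.46 for Tgfb3 (2.75e-10), 2.26 for Fst (4.55e-09) and 0.74 for Acvr2b (0.0173), and lower for Tgfbr2 (-0.39, 0.000122). The Gdf11 response changed sign, from a fall in control to a rise in the overexpressor.

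Between the knockout and the control, the response was higher by 1.48 for Gdf11 (2.34e-09), 0.28 for Tgfb3 (0.0108) and 0.86 for Acvr2b (0.00437). It was lower for Inhba (-1.77, 0.00448), Tgfb2 (-1.81, 1.37e-08), Fst (-1.49, 3.88e-07), Tgfbr1 (-1.04, 0.0489) and Tgfbr2 (-0.34, 0.000402). Gdf11 and Tgfb2 responded in opposite directions in the 2 lines. The Tgfbr2 difference was -0.19 with DESeq2 size factors (adjusted p = 0.0631), and the Tgfbr1 difference had adjusted p = 0.0752 with those and 0.071 when libraries were scaled to their totals. The Tgfbr1 call was also lost without any 1 of the control or knockout myoblast libraries, control myotube library A or C, or knockout myotube library B or C (adjusted p = 0.0648 to 0.124).

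Between the clones, the response was higher in the overexpressor for Gdf11 (0.59, 0.000161), Inhba (2.83, 0.000158), Tgfb2 (1.53, 2.13e-07), Tgfb3 (1.18, 6.74e-09), Fst (3.75, 1.34e-11) and Tgfbr1 (1.09, 0.043). The Tgfbr1 difference was 0.69 without overexpressor myotube library C (adjusted p = 0.108), and its call was lost too without overexpressor myoblast library A or C, any knockout myoblast library, or knockout myotube library B or C (adjusted p = 0.062 to 0.112). Inhba and Tgfb2 moved in opposite directions in the clones.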

How the results depend on the processing

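All 486 recomputed counts of called genes stayed within 1.5 times the main count. Member results numbered 120 (10 genes in 12 contrasts). Mstn is among them and in the recomputed counts, although no test of it is read. Of the 120, 82 kept their direction and their side of the threshold under every alternative. A direction reversed in 16, of which 1 was called in the main fit, Tgfb3 in control differentiation (log2FC -0.0085 with library totals). The other reversals were of values that had not been called. For Inhba between the clones in myoblasts they were 0.017 with DESeq2 size factors, 0.016 by DESeq2's Wald test and 0.0057 with the replicate block. Tgfb3 between the clones in myotubes gave -0.021 with size factors and -0.02 by the Wald test. Knockout differentiation gave -0.16 (library totals) and -0.0011 (no filter) for Acvr2b, and 0.06 (size factors), 0.06 (Wald test) and 0.0018 (only the groups compared) for Tgfbr2. The response of the overexpressor minus that of the knockout gave 0.0012 for Acvr2b and 0.06 for Tgfbr2 with library totals.

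Leaving out 1 library, reversed values ranged as follows. In the overexpressor against control, Tgfbr1 ran from -0.035 to 0.3 in myoblasts and from -0.11 to 0.39 in myotubes, Mstn from -0.05 to 1.43 and Tgfb1 from -0.23 to 0.016 in myotubes. Between the clones, Inhba ran from -0.3 to 0.15 in myoblasts, and Tgfb2 from -0.08 to 0.1 and Tgfb3 from -0.021 to 0.032 in myotubes. With differentiation, Inhba in control ran from -0.23 to 0.047 and Acvr2b in the knockout from -0.09 to 0.11. Differences in response ran from -0.27 to 0.25 for Tgfbr1 (overexpressor minus control), from -0.045 to 0.09 for Tgfb1 (knockout minus control) and from -1.29 to 0.32 for Mstn (overexpressor minus knockout).

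Scaling moved the median log2FC of all genes by over 0.1 in some contrasts, and by less between myoblast groups. In overexpressor against control myoblasts it was 0.02 in the main fit, 0.01 with size factors and -0.02 with library totals. Relative to the main fit, library totals took it from 0.07 to -0.17 in control differentiation, with 37.9% rather than 54% of calls higher, and from -0.08 to -0.24 in knockout differentiation, with 34% rather than 45.5%. In overexpressor against control myotubes it went from -0.04 to 0.11, with 57.8% rather than 45.8% of calls higher. For the response of the overexpressor minus control, the share higher was 42.7% in the main fit, 53.9% with size factors and 61% with library totals, and for the knockout minus control 40.4%, 52% and 47.2%.

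No pairing of the libraries by the letters A to C was seen, although deviations over 3 libraries per group cannot exclude it. Of 45 same-letter pairs, 4 had a correlation of deviations over 0.1 (range -0.358 to 0.264), and a library correlated best with its own letter in 10 of 45. The replicate block lost 4 member calls. They were Tgfb1 between the clones in myoblasts (adjusted p = 0.0649), Tgfbr2 in overexpressor differentiation, and Tgfbr1 in differences of response. For Tgfbr1 these were the knockout minus control (adjusted p = 0.059) and the overexpressor minus the knockout (adjusted p = 0.0592). The block gained 1 call, for Mstn, of which no test is read. Depth limits Mstn alone among the members, with at most 17 counts in a library.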
